A study of Mus musculus with 9 samples.

Results

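The Bcl2 family was followed in sorted cells of the adult mouse brain through 10 of its genes: Bcl2, Bcl2l1, Mcl1, Bax, Bak1, Bad, Bcl2l11, Bid, Bbc3 and Pmaip1. The genes were chosen by name from the array's gene symbols, and all 10 had probes, 19 in total, among 24891 genes and 40710 probes. A probe was kept if its signal was well above background on 3 or more of the 9 arrays; the 19 probes all met this, so no member was lost. The genes were picked with earlier results of the same arrays known, so the p-values below describe these arrays and are not independent evidence for the family.

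Proteins of the Bcl2 family decide whether the outer membrane of the mitochondrion is opened, the step that commits most cells to apoptosis. Anti-apoptotic members hold the membrane closed by binding their pro-apoptotic relatives. The effectors Bax and Bak1 form the pores through which cytochrome c escapes, and the BH3-only members carry death signals to the others by binding them. Many cells born in the adult hippocampus and in the subventricular zone (SVZ) die by apoptosis before they mature, and mice without Bax keep more of them. Much of this control acts on the proteins, through phosphorylation, cleavage and degradation, which RNA arrays do not measure.

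Cells came from mice aged 6 to 8 weeks of a pair of transgenic reporter lines, with no other treatment given in the labels. The SVZ Sox2-GFP and hippocampus Sox2-GFP groups were cells with green fluorescent protein driven by the Sox2 promoter. Sox2 is a stem cell transcription factor that glial and epithelial cells can also express. The hippocampus DCX-DsRed group was cells with a red fluorescent protein driven by the promoter of Dcx, a microtubule protein of newborn neurons. Each group had 3 arrays, with replicates called A, B and C. Tissue of 10 dissections was pooled for an experiment, and each array carried amplified RNA of 1000 sorted cells. Whether the 3 replicates of a group were separate pools of mice is not stated, so the p-values reflect the spread between samples alone, and that spread may be technical.

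Levels are on a log2 scale on which 0 is the 75th percentile of the same array's signals, and 1 unit is a factor of 2. Signals of different probes are not on one scale, so no gene is called higher or lower than another gene. Probe means served only to choose the probe that stands for a gene, and sums over marker lists are weighted to the brightest probes. The share of probes well above background ran between 80.2% and 88.3% over the arrays. Replicate C of the hippocampus Sox2-GFP group had a Pearson correlation over genes of 0.8159 to replicate A and 0.7834 to replicate B. Replicates A and B correlated at 0.9193. They shared slide 2 and replicate C was on slide 3, so slide and replicate cannot be told apart here. Hippocampus DCX-DsRed replicates A and B, both on slide 1, correlated at 0.9173. With their replicate C, on slide 3, they correlated at 0.8686 and 0.8711. The SVZ Sox2-GFP pairs correlated at 0.8204 to 0.8396. Neither reporter's marker list separated the hippocampal groups by the test. In limma 0 of 9 neural stem cell and astrocyte markers and 0 of 7 measured immature neuron markers passed. Of these, 0 and 2 had an unadjusted p under 0.05. The stem cell and astrocyte list averaged 1.71, 2.31 and -1.95 on the hippocampus Sox2-GFP arrays. On the hippocampus DCX-DsRed arrays it averaged 0.52, 0.54 and 0.80. Replicates A and B of hippocampus Sox2-GFP cells thus lay above those arrays, and replicate C below. Sox2 itself read 0.94, 0.92 and -0.94 in hippocampus Sox2-GFP cells, below the 1.29, 1.70 and 1.70 of hippocampus DCX-DsRed cells (difference -1.26, adjusted p = 0.335). Dcx averaged 1.08 ± 2.997 in SVZ Sox2-GFP, -1.28 ± 1.41 in hippocampus Sox2-GFP and -0.27 ± 1.37 in hippocampus DCX-DsRed cells (SD, n = 3 each), with all groups overlapping. Markers of other cells did differ. Of 7 measured choroid plexus markers, 6 were called higher in hippocampus Sox2-GFP than in hippocampus DCX-DsRed cells, as were 4 of 5 ependymal markers, and 4 of 8 oligodendrocyte markers were called lower.

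Of the 10 members, Bad alone passed the test at the probe that stands for the gene. There, Bad was about 6-fold higher in hippocampus Sox2-GFP cells than in either other group. The call held in 15 of 16 alternatives within the hippocampus and in 7 of 16 between the regions. A second Bad probe was 6.48-fold higher than in hippocampus DCX-DsRed cells but 2.67-fold higher, without passing, than in SVZ Sox2-GFP cells. Mcl1 took intermediate values in hippocampus Sox2-GFP cells, its lowest in SVZ Sox2-GFP cells and its highest in hippocampus DCX-DsRed cells, without passing the test. Between hippocampus Sox2-GFP and hippocampus DCX-DsRed cells 1 of 10 members was called, against 3.18% of all genes, and Bad was higher, as 1.76% of all genes were. Between SVZ and hippocampus Sox2-GFP cells 1 of 10 was called, against 0.406% of all genes, and it was lower in the SVZ, as 0.362% were. Between SVZ Sox2-GFP and hippocampus DCX-DsRed cells 0 of 10 was called by limma, against 1.5% of all genes, and 1 member, Mcl1, had an unadjusted p under 0.05, as 13.7% of all genes did.

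**Figure D1:**
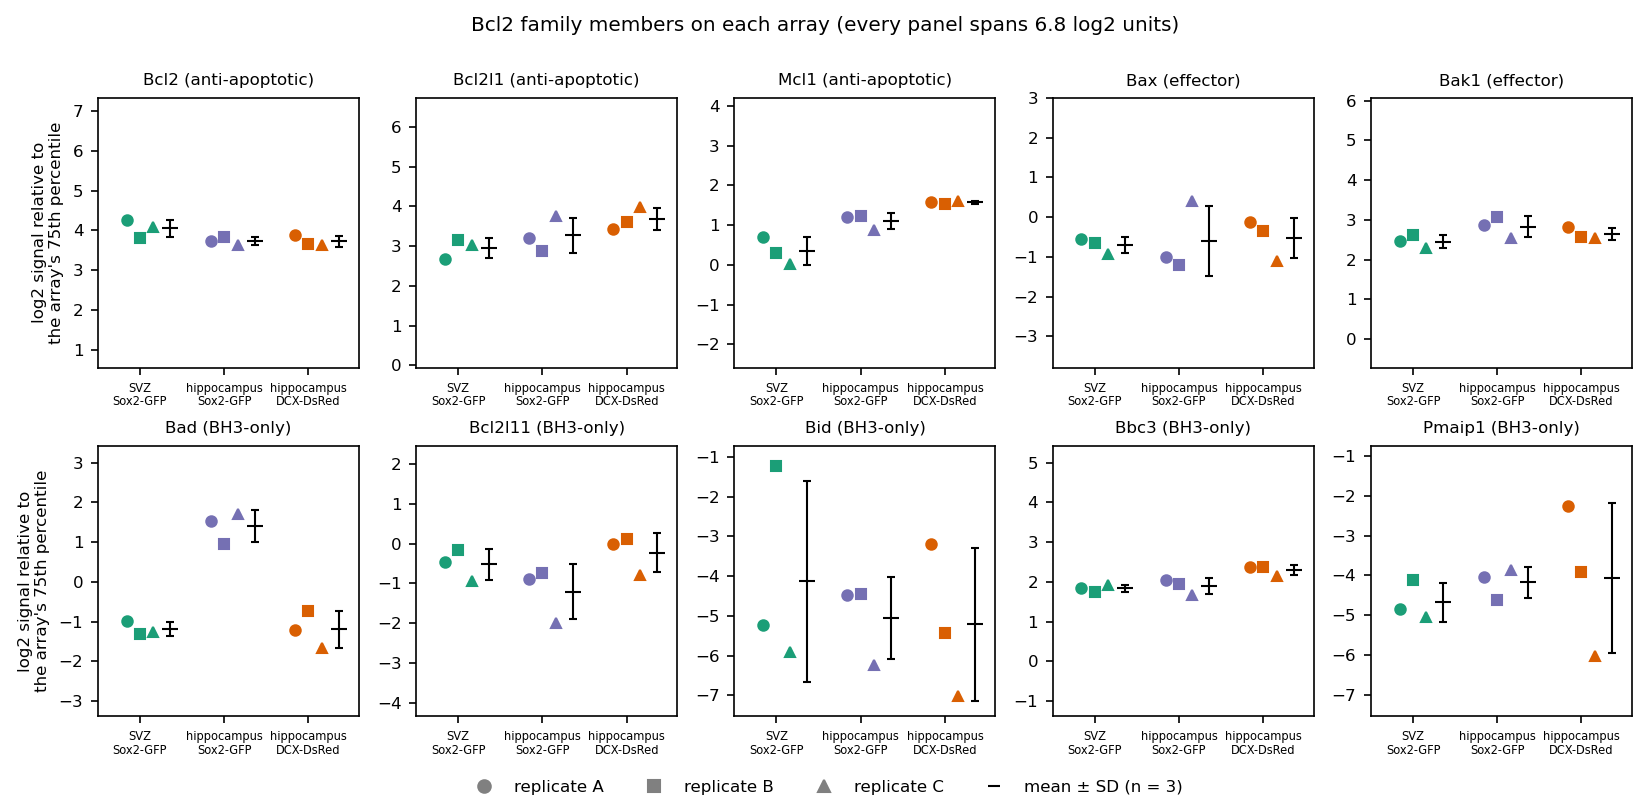
Level of each of the 10 members on the 9 arrays, on the log2 scale set by each array's 75th percentile, in SVZ Sox2-GFP, hippocampus Sox2-GFP and hippocampus DCX-DsRed cells. Points are arrays, bars are the mean ± SD of 3 arrays, and every panel spans the same range of log2 units. Bad lies higher on the 3 hippocampus Sox2-GFP arrays than on the other arrays, and Bid and Pmaip1 scatter widely.

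Bcl2, the founding anti-apoptotic member, was read by 3 probes that disagreed. The probe that stands for the gene, annotated to transcript variant 2, gave 4.25, 3.81 and 4.08 on the SVZ Sox2-GFP arrays, 3.73, 3.83 and 3.63 on the hippocampus Sox2-GFP arrays and 3.89, 3.67 and 3.62 on the hippocampus DCX-DsRed arrays. All 3 groups overlapped. The difference between hippocampus Sox2-GFP and hippocampus DCX-DsRed cells was 0.003, with a 95% interval of -0.64 to 0.64. Neither difference of the SVZ cells passed the test, with 0.32 against hippocampus Sox2-GFP (adjusted p = 0.72) and 0.32 against hippocampus DCX-DsRed (adjusted p = 0.703).

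The Bcl2 probe annotated to transcript variant 1, printed in 10 spots, gave another picture. It read -3.24, -3.84 and -2.56 in SVZ Sox2-GFP cells, -4.50, -3.55 and -4.11 in hippocampus Sox2-GFP cells and -6.70, -7.02 and -7.04 in hippocampus DCX-DsRed cells. The hippocampus DCX-DsRed arrays lay below all others, and on none of them did the probe rise well above background. It thus passed the filter through the Sox2-GFP groups in which it was bright, so its differences from hippocampus DCX-DsRed cells describe a probe that the filter kept for being bright elsewhere. A limma fit over all 36779 kept probes called 3.15% of probes between the hippocampal groups. There the probe's log2 difference was 2.87 (adjusted p = 0.0151). Between SVZ Sox2-GFP and hippocampus DCX-DsRed cells, a comparison that called 1.38% of probes, it was 3.71 (adjusted p = 0.0114). These p-values are for the signals as read, which in hippocampus DCX-DsRed cells were not well above background, and do not test the bounds that follow. As a bound, the probe was at least 2.93-fold higher in hippocampus Sox2-GFP than in hippocampus DCX-DsRed cells. In SVZ Sox2-GFP cells it was at least 5.24-fold higher than in hippocampus DCX-DsRed cells.

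Both bounds set the brighter group's mean against the lowest signal that counted as well above background on each array of the dimmer group. They hold for this processing only. Normexp background correction was also used in place of the scanner's processed signal. The log2 differences of the variant 1 probe were then 0.96 (adjusted p = 0.154) and 1.34 (adjusted p = 0.0737), both below the bounds and neither called. That setting adds an offset of 50 to every signal, which by itself narrows the log2 differences of dim probes. Over 14 alternatives it was called in 7 for hippocampus Sox2-GFP and in 11 for SVZ Sox2-GFP cells against hippocampus DCX-DsRed cells. Quantile normalization and slide as a block also ended the call for hippocampus Sox2-GFP cells (adjusted p = 0.0569 and 0.0671). Left out one at a time, hippocampus DCX-DsRed replicates A and B each ended both calls (adjusted p = 0.0558 and 0.0651 for hippocampus Sox2-GFP, and 0.0574 and 0.0584 for SVZ Sox2-GFP). Without hippocampus DCX-DsRed replicate C or hippocampus Sox2-GFP replicate B, the adjusted p of the hippocampal difference was 0.0554 and 0.0519. The third Bcl2 probe, annotated to a cDNA clone, read between -6.06 and -0.85 over the 9 arrays. Its SVZ Sox2-GFP arrays lay above its hippocampus DCX-DsRed arrays, its other groups overlapped, and none of its differences passed. Whether the probes differ in the transcripts they detect was not tested.

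**Figure D2:**
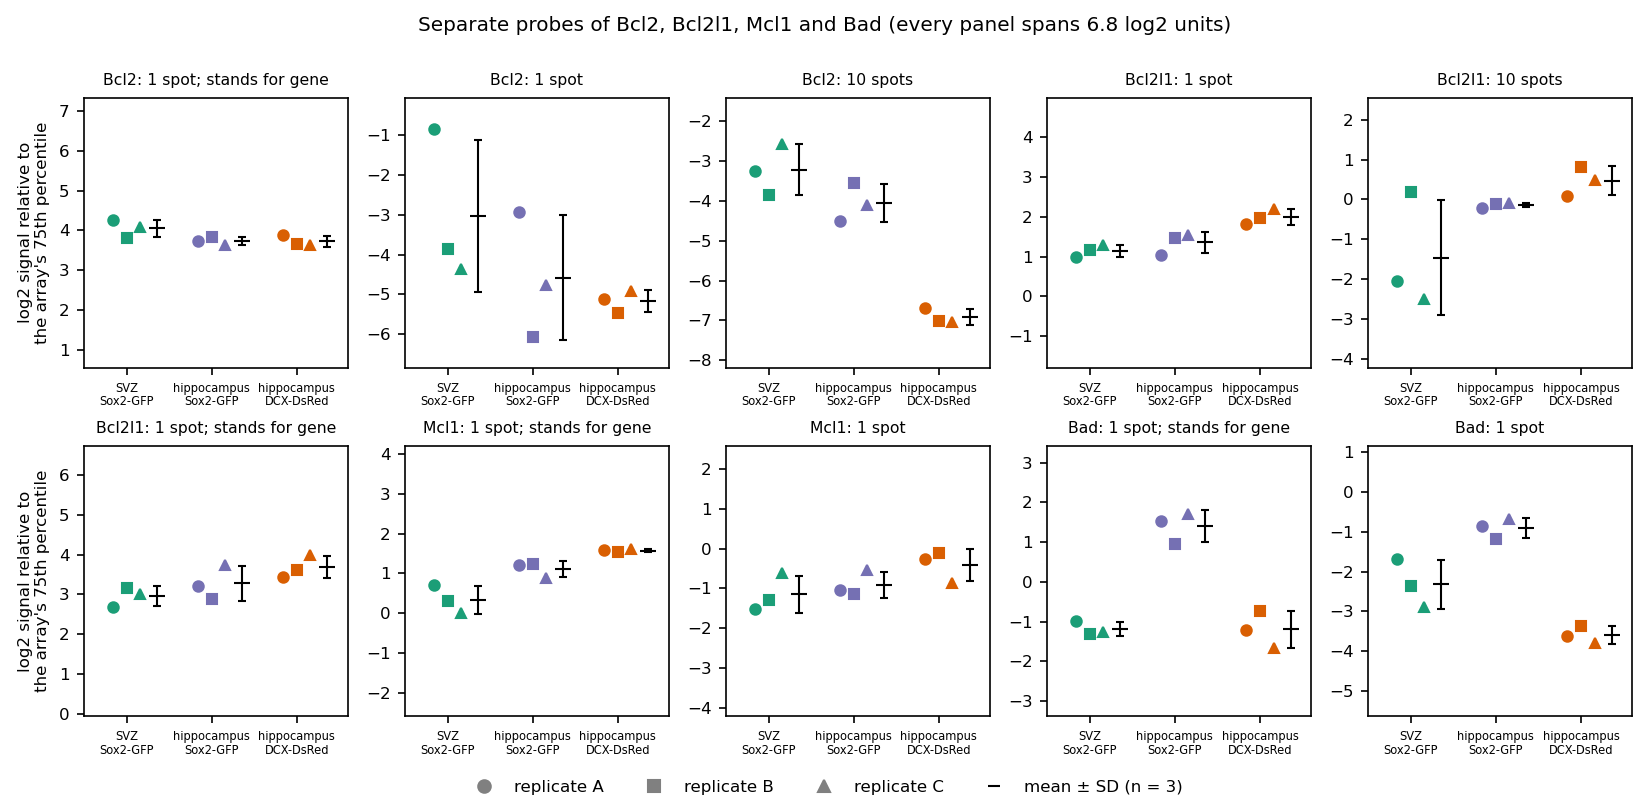
Every probe of Bcl2, Bcl2l1, Mcl1 and Bad on the 9 arrays, in log2 units from the array's 75th percentile. Points are arrays, bars are the mean ± SD of 3 arrays, and the titles give the spots per probe and the probe that stands for the gene. The Bcl2 probe with 10 spots is lowest on the hippocampus DCX-DsRed arrays while the main Bcl2 probe overlaps between groups, and both Bad probes are highest on the hippocampus Sox2-GFP arrays.

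Bcl2l1, which encodes the anti-apoptotic Bcl-xL and, by alternative splicing, a pro-apoptotic short form, gave 2.69, 3.16 and 3.02 in SVZ Sox2-GFP cells. It gave 3.21, 2.87 and 3.75 in hippocampus Sox2-GFP cells and 3.44, 3.61 and 3.98 in hippocampus DCX-DsRed cells. The SVZ arrays all lay below the hippocampus DCX-DsRed arrays, and the hippocampus Sox2-GFP arrays overlapped with both. The difference of SVZ Sox2-GFP from hippocampus DCX-DsRed cells was -0.72 ± 0.34 (SE) and did not pass (adjusted p = 0.411).

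The remaining Bcl2l1 probes had their highest group means in hippocampus DCX-DsRed cells too. One read 0.99, 1.16 and 1.29 in SVZ Sox2-GFP, 1.04, 1.47 and 1.55 in hippocampus Sox2-GFP and 1.81, 1.98 and 2.20 in hippocampus DCX-DsRed cells. Its hippocampus DCX-DsRed arrays lay above the other 6, and none of its differences passed. The other, printed in 10 spots, read -2.06, 0.18 and -2.50 in SVZ Sox2-GFP, -0.21, -0.11 and -0.10 in hippocampus Sox2-GFP and 0.09, 0.82 and 0.48 in hippocampus DCX-DsRed cells. Its 10 spots differed within an array by a median SD of 0.060, so the spread among the SVZ arrays lies between arrays and not between spots.

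Mcl1, a short-lived anti-apoptotic protein that binds Bak1 and the BH3-only proteins Bcl2l11 and Pmaip1, gave 0.71, 0.30 and 0.01 in SVZ Sox2-GFP cells, 1.20, 1.24 and 0.89 in hippocampus Sox2-GFP cells and 1.58, 1.54 and 1.60 in hippocampus DCX-DsRed cells. No group overlapped with another. SVZ Sox2-GFP cells were lower than hippocampus DCX-DsRed cells by a log2 difference of -1.23 ± 0.30 (SE), with a 95% interval of -1.93 to -0.54. That difference had an adjusted p of 0.104 over all genes and did not pass, and it stayed above the threshold in all 16 alternatives (adjusted p between 0.0584 and 0.274). Against hippocampus Sox2-GFP cells the SVZ difference was -0.77 ± 0.30 (adjusted p = 0.416), and the hippocampal difference was -0.46 ± 0.30 (adjusted p = 0.487). On slide 3, which held arrays of every group but 1 of each hippocampal group, the same 3 differences were -1.45, -0.73 and -0.71. On slide 1 the difference of SVZ Sox2-GFP from hippocampus DCX-DsRed cells was -0.85.

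The second Mcl1 probe kept the order of the group means but not their separation. It read -1.51, -1.30 and -0.62 in SVZ Sox2-GFP, -1.05, -1.15 and -0.53 in hippocampus Sox2-GFP and -0.25, -0.11 and -0.86 in hippocampus DCX-DsRed cells. Its groups overlapped, and its difference between SVZ Sox2-GFP and hippocampus DCX-DsRed cells was -0.74.

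The effectors showed no difference that passed. Bax, read by a single probe in 10 spots, gave -0.55, -0.64 and -0.92 in SVZ Sox2-GFP cells, -1.0, -1.20 and 0.41 in hippocampus Sox2-GFP cells and -0.13, -0.34 and -1.10 in hippocampus DCX-DsRed cells. Hippocampus Sox2-GFP replicate C was the highest of the 9 arrays and lay far from replicates A and B, whereas the 10 spots within an array had an SD of at most 0.093. The hippocampal difference was -0.07, with a 95% interval of -1.19 to 1.04, which spans more than a factor of 2 in either direction.

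Bak1, the effector that Mcl1 and Bcl-xL hold in check, gave 2.47, 2.62 and 2.28 in SVZ Sox2-GFP, 2.88, 3.06 and 2.53 in hippocampus Sox2-GFP and 2.82, 2.58 and 2.55 in hippocampus DCX-DsRed cells. All groups overlapped. The widest of its differences was -0.37 for SVZ against hippocampus Sox2-GFP cells (adjusted p = 0.691). Its second probe read between -2.73 and 0.07, again with overlapping hippocampal groups and no call.

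Bad, a BH3-only protein that binds Bcl2 and Bcl-xL and is held inactive when survival kinases phosphorylate it, was the member that moved. It gave -0.99, -1.31 and -1.25 in SVZ Sox2-GFP cells, 1.54, 0.94 and 1.71 in hippocampus Sox2-GFP cells and -1.20, -0.72 and -1.67 in hippocampus DCX-DsRed cells. The 3 hippocampus Sox2-GFP arrays lay above the other 6, which overlapped. Group means were -1.19 ± 0.17, 1.40 ± 0.40 and -1.20 ± 0.47 (SD, n = 3 each). Hippocampus Sox2-GFP cells were 6.04-fold higher than hippocampus DCX-DsRed cells, a log2 difference of 2.59 ± 0.36 (SE) with a 95% interval of 1.76 to 3.43 (limma, adjusted p = 0.0109). SVZ Sox2-GFP cells were 5.99-fold lower than hippocampus Sox2-GFP cells, a log2 difference of -2.58 ± 0.36 with an interval of -3.42 to -1.75 (adjusted p = 0.0298). The comparisons share the hippocampus Sox2-GFP arrays. The difference of SVZ Sox2-GFP from hippocampus DCX-DsRed cells was 0.012, with an interval of -0.82 to 0.84.

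The direction of Bad was kept in the 16 alternatives of both comparisons with hippocampus Sox2-GFP cells, while the calls were not equally firm. In the hippocampus Bad was called in 15 of 16 alternatives, and without hippocampus DCX-DsRed replicate A its adjusted p was 0.0507. Without hippocampus Sox2-GFP replicate C, the array that correlated least with its fellows, the hippocampal difference was 2.44 (adjusted p = 0.0248). Between the regions Bad was called in 7 of 16, and with the mean of its probes the difference was -1.999 (adjusted p = 0.0594). The call ended without SVZ Sox2-GFP replicates A, B or C (adjusted p = 0.0813, 0.0972 and 0.0887), hippocampus Sox2-GFP replicates A or C (0.128 and 0.0684) and hippocampus DCX-DsRed replicates A or B (0.0741 and 0.0539). With slide as a block the differences were 3.24 and -3.06. On slide 3 alone, with 1 hippocampus Sox2-GFP array, they were 3.38 and -2.99. Slide 2 held hippocampus Sox2-GFP replicates A and B and no other array. The block estimates therefore also rested on hippocampus Sox2-GFP replicate C, and group and slide are partly confounded.

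A second Bad probe, annotated to a cDNA clone, placed the groups in a partly different order. It read -1.67, -2.37 and -2.90 in SVZ Sox2-GFP, -0.86, -1.17 and -0.67 in hippocampus Sox2-GFP and -3.61, -3.36 and -3.81 in hippocampus DCX-DsRed cells, with no overlap between any groups. The difference of hippocampus Sox2-GFP from hippocampus DCX-DsRed cells was 2.70 ± 0.40 (SE) and passed in the fit over all probes (adjusted p = 0.014). In SVZ Sox2-GFP cells the probe differed from hippocampus Sox2-GFP cells, a comparison that called 0.449% of probes, by -1.42 (adjusted p = 0.244) and from hippocampus DCX-DsRed cells by 1.28 (adjusted p = 0.196), and neither passed. The hippocampal call of this probe ended without hippocampus Sox2-GFP replicate A (adjusted p = 0.0549) and without hippocampus DCX-DsRed replicates A, B or C (0.0608, 0.0511 and 0.0516).

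**Figure D3:**
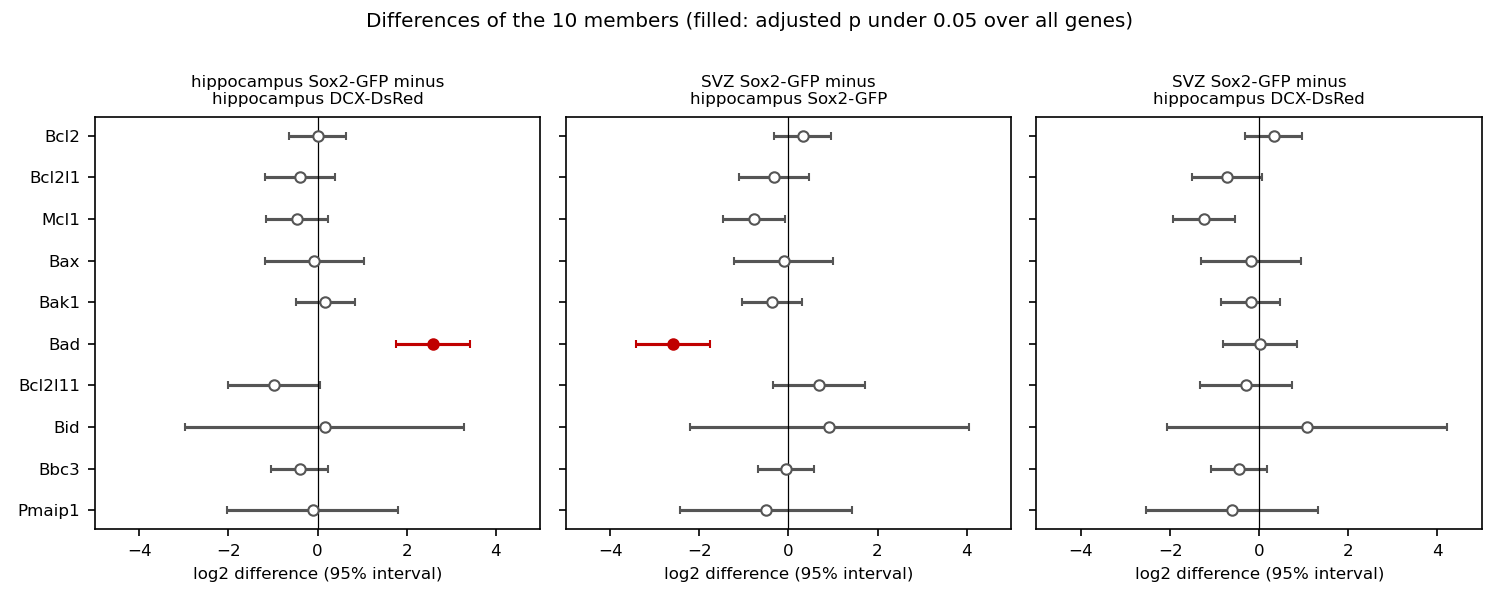
Log2 differences of the 10 members in the 3 comparisons, with 95% intervals from limma. Each point is the difference of 2 means of 3 arrays, and filled points passed an adjusted p of 0.05 over all genes. Bad passed in both comparisons with hippocampus Sox2-GFP cells, at 2.59 and -2.58, and the intervals of the other members include 0 except those of Mcl1 in the comparisons with SVZ Sox2-GFP cells.

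Markers of choroid plexus epithelium were high on the same arrays as Bad. The mean of the 7 measured choroid plexus markers was -1.89, -2.93 and -3.0 on the SVZ Sox2-GFP arrays, 2.68, 1.92 and 3.57 on the hippocampus Sox2-GFP arrays and -3.38, -3.06 and -2.89 on the hippocampus DCX-DsRed arrays. Within hippocampus Sox2-GFP cells, replicate B was lowest and replicate C highest for both Bad and the choroid plexus list. The log2 of the summed level of the list lay between 0.90 and 1.54 in SVZ Sox2-GFP, between 5.66 and 7.37 in hippocampus Sox2-GFP and between 0.97 and 1.37 in hippocampus DCX-DsRed cells. Ttr, the transthyretin carrier that defines choroid plexus epithelium, read 5.4, 5.03 and 6.43 in hippocampus Sox2-GFP cells, against -5.09, -4.83 and -1.18 in hippocampus DCX-DsRed cells. The summed level of the 5 measured ependymal markers lay between 0.09 and 1.57 in SVZ Sox2-GFP, between 3.4 and 4.12 in hippocampus Sox2-GFP and between -1.64 and -0.48 in hippocampus DCX-DsRed cells. Between SVZ and hippocampus Sox2-GFP cells 0 of 5 ependymal markers were called, with a median difference of -2.77. There 4 of them had an unadjusted p under 0.05 in limma, as 10.8% of all genes did. Their median difference between SVZ Sox2-GFP and hippocampus DCX-DsRed cells was 1.43, where the Bad probes gave 0.012 and 1.28. Their mean was 0.73, 1.47 and -0.46 on the hippocampus Sox2-GFP arrays. The low mean of replicate C rested on Tmem212, which read -8.39 there. Foxj1, Dynlrb2, Pifo and Rsph1 read 1.39, 1.53, 1.76 and 1.42 on that array. The part of choroid plexus and ependymal cells in the level of Bad was not tested. In such bulk samples more cells of a type and more RNA per cell cannot be told apart.

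**Figure D4:**
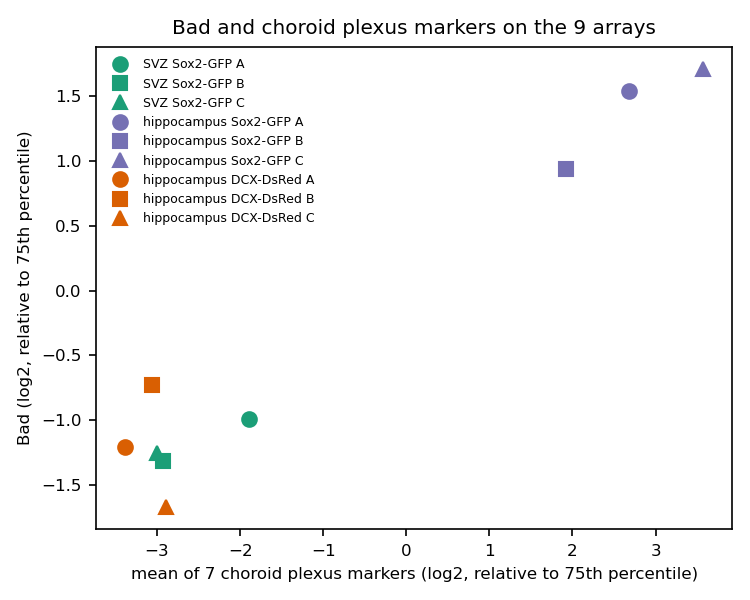
Bad against the mean of 7 choroid plexus markers on each of the 9 arrays, both in log2 units from the array's 75th percentile. The 3 hippocampus Sox2-GFP arrays lie apart at marker means of 1.92 to 3.57 and Bad levels of 0.94 to 1.71, and the 6 other arrays lie together at low values of both.

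The gene with the pattern most like that of Bad over the 9 arrays was Cldn1, which encodes a tight junction claudin, with a Pearson correlation of 0.9926, followed by the transcript BC013481 at 0.9917. These are the highest of all measured genes and describe arrays that fall into separate sets. Among members well above background on all arrays, Bcl2l11 and Bax had the next widest ranges, 2.11 and 1.60. The genes most like Bcl2l11 were Aqp8, a water channel, at 0.97 and Ang, the ribonuclease angiogenin, at 0.9687. Those most like Bax were Ifi27l2a, an interferon-induced gene, at 0.9709 and Skint4 at 0.9617.

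The other BH3-only members gave no call. Bcl2l11, which encodes Bim and is switched on by FoxO factors when growth factors are withdrawn, read -0.46, -0.17 and -0.93 in SVZ Sox2-GFP, -0.89, -0.74 and -2.0 in hippocampus Sox2-GFP and -0.01, 0.12 and -0.78 in hippocampus DCX-DsRed cells. Replicate C was the lowest array of every group, and the hippocampal groups overlapped. Each replicate C was on slide 3, as was SVZ Sox2-GFP replicate B, the highest array of its group. The hippocampal difference was -0.98 ± 0.45 (SE), with an interval of -2.02 to 0.05 (adjusted p = 0.32). A further pair of Bcl2l11 probes read between -5.57 and -0.17 with no call.

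Bbc3, or Puma, a p53 target that binds all anti-apoptotic members, had narrow groups. It read 1.85, 1.75 and 1.92 in SVZ Sox2-GFP, 2.06, 1.95 and 1.66 in hippocampus Sox2-GFP and 2.38, 2.36 and 2.14 in hippocampus DCX-DsRed cells. The hippocampus DCX-DsRed arrays lay above the other 6. The differences, -0.41 for hippocampus Sox2-GFP (adjusted p = 0.504) and -0.46 for SVZ Sox2-GFP (adjusted p = 0.537), did not pass.

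Bid, which caspases cut into its active form, and Pmaip1, or Noxa, a p53 target that binds Mcl1, were dim. Bid read -5.24, -1.23 and -5.92 in SVZ Sox2-GFP, -4.48, -4.44 and -6.24 in hippocampus Sox2-GFP and -3.19, -5.42 and -7.01 in hippocampus DCX-DsRed cells. SVZ Sox2-GFP replicate B stood far above the other arrays, and replicate C of each of the hippocampal groups was not well above background. Pmaip1 read -4.86, -4.11 and -5.06 in SVZ Sox2-GFP, -4.04, -4.62 and -3.86 in hippocampus Sox2-GFP and -2.26, -3.92 and -6.02 in hippocampus DCX-DsRed cells. Its hippocampus DCX-DsRed arrays alone spanned the values of the other 6. The hippocampal differences of 0.16 ± 1.37 (SE) for Bid and -0.11 ± 0.84 for Pmaip1 have errors too wide to read a direction from.

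Counted by separation alone, 3 of 10 members did not overlap between hippocampus Sox2-GFP and hippocampus DCX-DsRed cells: Bad was higher, and Mcl1 and Bbc3 were lower in hippocampus Sox2-GFP. Of all genes 24.8% did not overlap, 11.6% with hippocampus Sox2-GFP higher and 13.1% with it lower. Between SVZ and hippocampus Sox2-GFP cells it was 2 of 10, Mcl1 and Bad, both lower in the SVZ, against 16.8% of all genes in either direction and 8.21% in that one. Between SVZ Sox2-GFP and hippocampus DCX-DsRed cells it was 3 of 10, Bcl2l1, Mcl1 and Bbc3, all lower in the SVZ, against 21.1% in either direction and 10.4% in that one. The members' median differences in these comparisons were -0.09, -0.22 and -0.24, beside -0.07, 0.07 and -0.02 over all genes.

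Of 12 other measured Bcl2 relatives, 0 were called by limma in any comparison. In the hippocampal, regional and SVZ Sox2-GFP against hippocampus DCX-DsRed comparisons 4, 1 and 2 of them had an unadjusted p under 0.05, where 16.9%, 10.8% and 13.7% of all genes did. The nearest to the threshold was Bcl2a1b, an anti-apoptotic member known from blood cells and one of a cluster of near-identical gene copies that the probe may not tell apart. It read 0.69, 0.18 and -0.27 in SVZ Sox2-GFP, 2.78, 1.80 and 3.25 in hippocampus Sox2-GFP and -0.07, -0.35 and 1.24 in hippocampus DCX-DsRed cells. Its hippocampus Sox2-GFP arrays lay above the other 6, as for Bad, but its differences of 2.33 (adjusted p = 0.0666) and -2.41 (adjusted p = 0.156) did not pass. Bok, an effector relative of Bax and Bak1, differed by 1.47 between SVZ Sox2-GFP and hippocampus DCX-DsRed cells (adjusted p = 0.142).

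Downstream of the mitochondrion, 0 of 13 measured genes of the apoptosome and caspase list and 0 of 8 inhibitor of apoptosis genes were called by limma in any comparison. In the same 3 comparisons 2, 3 and 3 genes of the first list and 1, 2 and 3 of the second had an unadjusted p under 0.05. Casp8, the initiator caspase of death receptors, read -4.45, -4.29 and -4.59 in hippocampus DCX-DsRed cells and lay between -3.82 and 0.53 on the Sox2-GFP arrays of both regions. Its hippocampal difference of 3.14 did not pass (adjusted p = 0.128). Apaf1, the scaffold of the apoptosome, differed by 2.26 between SVZ and hippocampus Sox2-GFP cells (adjusted p = 0.205), where its other probes gave 1.30 and -0.19. Dffa, the inhibitor of the nuclease that cuts DNA in dying cells, differed by 2.04 between SVZ Sox2-GFP and hippocampus DCX-DsRed cells (adjusted p = 0.0599), where its other probes gave 0.36 and -0.17. Of the inhibitors, Birc2, a ubiquitin ligase, read 0.74, 0.30 and -0.10 in SVZ Sox2-GFP, -1.68, -3.19 and -4.56 in hippocampus Sox2-GFP and -1.95, -2.20 and -2.78 in hippocampus DCX-DsRed cells. Its SVZ arrays lay above the other 6, with differences of 3.46 (adjusted p = 0.0969) and 2.62 (adjusted p = 0.12), but a second Birc2 probe gave -0.015 and -0.21. Naip1, a further family member, differed by 1.28 in the hippocampus (adjusted p = 0.158).

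Among 11 death receptor and adaptor genes, 1 was called between the hippocampal groups, against 3.18% of all genes. In the same 3 comparisons 1, 1 and 1 of them had an unadjusted p under 0.05 in limma. Of all genes 16.9%, 10.8% and 13.7% did. The only called gene was Cflar. It encodes c-FLIP, which keeps Casp8 from being activated at death receptors. Cflar read 0.08, 0.04 and 0.72 in SVZ Sox2-GFP, 1.33, 1.13 and 2.41 in hippocampus Sox2-GFP and -4.49, -3.12 and -1.44 in hippocampus DCX-DsRed cells. All 3 groups were separate. It was 25.0-fold higher in hippocampus Sox2-GFP than in hippocampus DCX-DsRed cells, a log2 difference of 4.64 ± 0.74 (SE, adjusted p = 0.017), and the difference of 3.30 for SVZ Sox2-GFP cells did not pass (adjusted p = 0.0809). The 6 Cflar probes disagreed: the other 5 gave hippocampal differences of 5.13, 1.48, 0.77, 0.32 and -0.07. With the mean of its probes the difference was 2.04 (adjusted p = 0.0795), and without hippocampus Sox2-GFP replicate A or hippocampus DCX-DsRed replicate B the adjusted p was 0.054 and 0.0656. Fadd, the adaptor that joins the receptors to Casp8, differed by 0.96 between SVZ and hippocampus Sox2-GFP cells (adjusted p = 0.439), where its other probe gave -0.96.

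Of the p53 pathway, which controls Bbc3 and Pmaip1, 1 of 12 genes was called between the hippocampal groups, lower in hippocampus Sox2-GFP cells. Of all genes 3.18% were called there in either direction. Between SVZ Sox2-GFP and hippocampus DCX-DsRed cells 1 was called higher and 1 lower, against 1.5% of all genes. In the same 3 comparisons 3, 3 and 2 of the 12 had an unadjusted p under 0.05 in limma. Of all genes 16.9%, 10.8% and 13.7% did. Phlda3, a p53 target that restrains Akt signalling, read -4.19, -3.83 and -4.61 in SVZ Sox2-GFP, -4.43, -4.04 and -4.37 in hippocampus Sox2-GFP and -1.34, -1.67 and -0.66 in hippocampus DCX-DsRed cells. The hippocampus DCX-DsRed arrays lay above the other 6. Phlda3 was 8.33-fold lower in hippocampus Sox2-GFP cells (log2 difference -3.06 ± 0.37, adjusted p = 0.00666) and 7.92-fold lower in SVZ Sox2-GFP cells (-2.98 ± 0.37, adjusted p = 0.013) than in hippocampus DCX-DsRed cells. The SVZ call ended without hippocampus DCX-DsRed replicate A (adjusted p = 0.0572).

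The log2 of the summed level of 8 oligodendrocyte markers, highest in the same group as Phlda3, lay between 4.37 and 6.24 in SVZ Sox2-GFP, between 0.83 and 5.27 in hippocampus Sox2-GFP and between 7.87 and 8.23 in hippocampus DCX-DsRed cells. Their part in the result was not tested. Trp63, a p53 relative, was 7.15-fold higher in SVZ Sox2-GFP than in hippocampus DCX-DsRed cells (2.84 ± 0.47, adjusted p = 0.032). It was called in 8 of 16 alternatives, and its call ended without any 1 SVZ Sox2-GFP or hippocampus DCX-DsRed array or hippocampus Sox2-GFP replicate A, with adjusted p between 0.0504 and 0.122. Perp, a membrane protein and p53 target, differed by -2.55 between SVZ and hippocampus Sox2-GFP cells (adjusted p = 0.153).

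A list of 17 genes held kinases of Bad, the Ywha adaptor proteins that keep phosphorylated Bad in the cytosol, and Ppp3ca, a subunit of the phosphatase calcineurin, which dephosphorylates Bad. Of these, 1 was called between the hippocampal groups, against 3.18% of all genes. In the same 3 comparisons 4, 0 and 2 of the 17 had an unadjusted p under 0.05 in limma. Of all genes 16.9%, 10.8% and 13.7% did. The only called gene was Ywhaq. It read 0.23, 1.27 and -1.04 in SVZ Sox2-GFP, -0.20, -0.91 and -0.84 in hippocampus Sox2-GFP and 2.05, 2.06 and 2.52 in hippocampus DCX-DsRed cells. The hippocampus DCX-DsRed arrays lay above the other 6. Ywhaq was 7.25-fold lower in hippocampus Sox2-GFP than in hippocampus DCX-DsRed cells (-2.86 ± 0.56, adjusted p = 0.0362), and its other probes gave -2.69 and -2.93. It was called in 7 of 16 alternatives: leaving out SVZ Sox2-GFP replicate A or any 1 hippocampal array ended the call, with adjusted p between 0.0581 and 0.111, as did slide as a block (adjusted p = 0.113). The oligodendrocyte markers were highest in the same cells, and their part was not tested. Pim1, a kinase of Bad, differed by -0.71 between SVZ and hippocampus Sox2-GFP cells (adjusted p = 0.544), where its other probe gave 0.23.

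Neither of the remaining lists gave a call by limma, with 2, 2 and 1 of 11 genes in one and 0, 0 and 1 of 6 in the other at an unadjusted p under 0.05. Of 11 further regulators of BH3-only gene transcription, Atf3, a stress-induced transcription factor, came nearest. It read -1.91, 0.66 and 0.82 in SVZ Sox2-GFP, 3.58, 3.06 and 3.92 in hippocampus Sox2-GFP and -0.28, -0.12 and 1.58 in hippocampus DCX-DsRed cells. Its hippocampus Sox2-GFP arrays lay above the other 6, as for Bad, with differences of 3.12 (adjusted p = 0.0847) and -3.66 (adjusted p = 0.143). Ddit3, the stress factor CHOP, differed by -2.11 between SVZ Sox2-GFP and hippocampus DCX-DsRed cells (adjusted p = 0.312). Of 6 genes of Mcl1 protein turnover, Usp9x, the deubiquitinase that stabilises Mcl1, had the smallest p in every comparison, with differences of -0.60, -1.14 and -1.74 (adjusted p = 0.709, 0.593 and 0.303). Its other probe gave 0.70, -0.50 and 0.20.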

How the data were processed

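The values analysed were deposited as 1 scanner table per array. The authors' spot intensities came from Agilent Feature Extraction 9.5.1.1, per the file headers, as a processed signal with background removed and no scaling between arrays. Columns of other values in the deposited tables, 0 or 1, mark saturated spots, outliers and spots well above background, per the file headers. In the submitters' processing notes limma appears without a version. The table of hippocampus DCX-DsRed replicate A had 47 altered gene symbols, so names came from an intact one, updated through RefSeq (GRCm38.p6, names only).

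Outlier spots were left out, spots of a probe were averaged, and log2 of the deposited signal was taken relative to the array's 75th percentile. A gene was represented by its probe of highest mean among those well above background on 3 or more of the 9 arrays. Limma 3.58.1 (R 4.3.3) was fitted to all 9 arrays, with Benjamini-Hochberg adjustment over every gene tested at 0.05, and once more to single probes. The fit was run on simulated data with independent noise and no slide, replicate or outlying-array effects, so that run cannot show how such effects alter the calls. The number of arrays limits the precision.

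Named are the 10 members, from each list up to 3 called genes with the largest difference in a comparison or else the gene with the smallest p, and the 2 genes most correlated with each of the 3 members of widest range among those well above background on all 9 arrays. Members, lists and rules were chosen with earlier results of these data known. Alternatives were background correction (normexp with an offset of 50), normalization, probe filters, probe averaging, slide and replicate blocks, and leaving out each array. Slide was read from the array barcodes.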

Additional observations from a re-analysis of the deposited data

How the results depend on the processing

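No called difference of a member or other named gene changed sign in any alternative. Counts of called genes depended more on the setting. Between hippocampus Sox2-GFP and hippocampus DCX-DsRed cells, 791 genes were called, against 2035 with slide as a block (36.8% of them higher, against 55.4%), 489 with a replicate block and 249 to 778 without 1 array. Between SVZ and hippocampus Sox2-GFP cells, 101 were called, against 160 with normexp background correction, 52 with probes well above background on all 9 arrays, 175 with the mean of a gene's probes, 2147 with slide as a block (63.9% higher, against 10.9%), 13 with a replicate block and 25 to 103 without 1 array. Between SVZ Sox2-GFP and hippocampus DCX-DsRed cells, 374 were called, against 790 with slide as a block, 178 with a replicate block and 49 to 850 without 1 array. The causes were not tested. Slide 2 held only hippocampus Sox2-GFP replicates A and B, so slide-block comparisons with that group rested on its replicate C. Members called were 1 in the hippocampus, 1 between regions and 0 in the last comparison. They came to 2, 1 and 1 where any probe of a member could count, an alternative chosen after seeing the data. The single-probe fits called 3.15%, 0.449% and 1.38% of all kept probes. The member added was Bcl2, through its transcript variant 1 probe, which the filter kept for being bright in the Sox2-GFP groups. Between regions 0 were called with the mean of a gene's probes, where Bad was -2.0 (adjusted p = 0.0594), and 0 with the replicate block (adjusted p of Bad 0.109). Without 1 array, 0 to 1 was called in each of the comparisons with hippocampus Sox2-GFP cells. Replicate letters did not pair the arrays: deviations of same-lettered arrays from their group means correlated between -0.044 and 0.115. The replicate block also ended the calls of Ywhaq in the hippocampus (adjusted p = 0.0785) and of Trp63 between SVZ Sox2-GFP and hippocampus DCX-DsRed cells (adjusted p = 0.0838). Signals near background limit what can be read of Bid, Pmaip1 and the Bcl2 probe of transcript variant 1.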
